A study of Homo sapiens with 16 samples.

Results

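The smooth muscle contractile apparatus was followed through 40 genes chosen by name for their known function. All 40 symbols were present among the 40663 of the table, of which 26907 had at least 1 count. They comprised 3 muscle actins, 3 myosin heavy chains, 5 genes of the myosin light chain and its phosphorylation switch, 10 thin filament genes, 9 genes that anchor filaments, 8 transcriptional regulators and 2 genes of the calcium store. RNA was sequenced from 16 cultures of Ccd18-Co, an established line of human colonic fibroblasts, with 4 cultures in each of 4 groups. Unstimulated cells received no cytokine and, by their titles, DMSO, although the columns of the table name no agent for them. The other groups had 3 cytokine pulses, made of IL-1B at 0.1 ng/ml and of IL-17A, OSM and TNF at 10 ng/ml, with each pulse lasting 72 h before 96 h of recovery. After 1 week of rest they received, for 5 days, DMSO (called vehicle here), belinostat at 250 nM or GSK-J4 at 10 µM. Doses are those of the labels. The study's text gives other concentrations for belinostat and, in the legend of a secreted-protein assay, for GSK-J4. For IL-1B, the legend of this design gives the label's value and the methods give a lower one. Belinostat inhibits histone deacetylases, and GSK-J4 inhibits demethylases that act on a lysine of histone H3. Cells were harvested for RNA 2 weeks after the compounds. All cultures came from a single cell line kept at up to passage 20, and the labels do not say whether replicates came from separate experiments, so the p-values measure the spread between these cultures, which may be technical.

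Smooth muscle shortens when myosin II pulls on actin filaments. Calcium-bound calmodulin activates the myosin light chain kinase MYLK, which phosphorylates the regulatory light chain MYL9, and myosin phosphatase removes the phosphate. Transcription of these genes is known to depend on SRF, which binds a DNA element called the CArG box and is assisted by MYOCD in muscle and by the actin-sensing partners MRTFA and MRTFB in many cells. Activated gut fibroblasts, or myofibroblasts, use part of the same apparatus and are recognised by ACTA2.

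Libraries held 14.4 to 19.5 M estimated counts, and the 40 genes took 2.13% to 2.85% of them. All 8 fibroblast markers averaged 10 or more normalized counts (counts divided by the library's size factor) in every group. So did 9 of 10 smooth muscle markers, all of them among the 40 genes. The same held for 5 of 8 pericyte markers and 3 of 3 markers of interstitial cells of Cajal. This rule therefore does not separate fibroblasts from smooth muscle, and the cell type is taken from the labels. DES, the desmin gene that defines mature smooth muscle, was at most 3.24 normalized counts in any library. Libraries within a group were not alike. Among the 34 contractile genes with a mean of at least 100 normalized counts, unstimulated replicate 3 lay above its group's mean for 5, vehicle replicate 16 for 6 and belinostat replicate 17 for 3. The median deviation of these genes from the group mean was -0.15 on the log2 scale in unstimulated replicate 3 and -0.22 in belinostat replicate 17. Counts of calls that these libraries move are also given without them. In these bulk samples, fewer cells of a type and less RNA per cell cannot be told apart.

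The CArG box was searched in the 250 bases before each start site of the RefSeq promoter table (assembly GRCh38.p14). The box has 10 bases, a run of A and T between CC and GG, and reads as a box on either strand. It was present for 12 of the 35 contractile genes that the table held, or 34.3%, against 1.44% of all 27305 genes in the table. By promoter it was present in 12 of 84, or 14.3%, against 1.16% of 35116, since the contractile genes have more listed promoters each. MYH11, MYL9, TAGLN, DES and MYOCD were not in the table. The stretches shown are those of the 8 genes that hold a box and differed from vehicle under a compound, with 1 box in capitals in each. They show how the element recurs among genes of different roles.
ACTG2, upstream box (chr2:73892873-73892932, plus strand): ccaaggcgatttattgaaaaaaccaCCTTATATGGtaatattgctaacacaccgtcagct
ACTG2, downstream box (chr2:73892910-73892969, plus strand): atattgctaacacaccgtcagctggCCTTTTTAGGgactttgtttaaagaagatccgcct
MYLK (chr3:123620608-123620667, minus strand): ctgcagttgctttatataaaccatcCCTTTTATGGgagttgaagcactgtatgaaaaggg
CNN2 (chr19:1026494-1026553, plus strand): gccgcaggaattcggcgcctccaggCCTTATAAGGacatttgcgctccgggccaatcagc
TPM4 (chr19:16067340-16067399, plus strand): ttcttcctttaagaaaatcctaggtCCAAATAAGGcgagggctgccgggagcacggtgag
SMTN (chr22:31084927-31084986, plus strand): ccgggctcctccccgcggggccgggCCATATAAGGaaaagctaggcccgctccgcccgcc
FLNA (chrX:154374694-154374753, minus strand): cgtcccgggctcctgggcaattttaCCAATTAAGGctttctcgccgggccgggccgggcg
SRF (chr6:43171214-43171268, plus strand): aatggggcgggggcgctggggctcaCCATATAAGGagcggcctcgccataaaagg
TGFB1I1 (chr16:31473129-31473188, plus strand): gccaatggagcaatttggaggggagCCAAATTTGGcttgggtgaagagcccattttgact

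The boxes of ACTG2 end 100 and 63 bases before the start site, and that of SMTN ends 34 bases before it. SRF, itself a gene of this set, had a second box that ends at the base before its start site, printed in lower case at the end of its stretch. The stretches of ACTG2, MYLK, TPM4, SMTN and TGFB1I1 lie inside the annotated genes, whose outermost starts are further upstream, and those of CNN2, FLNA and SRF lie outside. The MYLK promoter in the table lies near the downstream end of the gene (123610049 to 123884332, minus strand). Its box therefore belongs to an internal start and not to the outermost start of MYLK. ACTC1, ACTN1, LPP and FHL1 were the other genes with a box. A match is a description of the letters and not evidence of binding. Only this exact pattern was searched, so a gene without a match may hold a variant of the element in the window. It may also hold the element outside the window.

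GSK-J4 gave the highest group mean for 21 of the 34 genes with a mean of at least 100 normalized counts, or 61.8%, where 26.4% of all 10728 genes at that level were highest under GSK-J4. Belinostat gave the lowest mean for 22 of the 34, or 64.7%, against 33.0% of all genes. The map of single libraries shows this as a band of higher values in the GSK-J4 columns and of lower values in the belinostat columns, with exceptions that include MYH9, CALD1, CAV1 and several regulators.

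**Figure D1:**
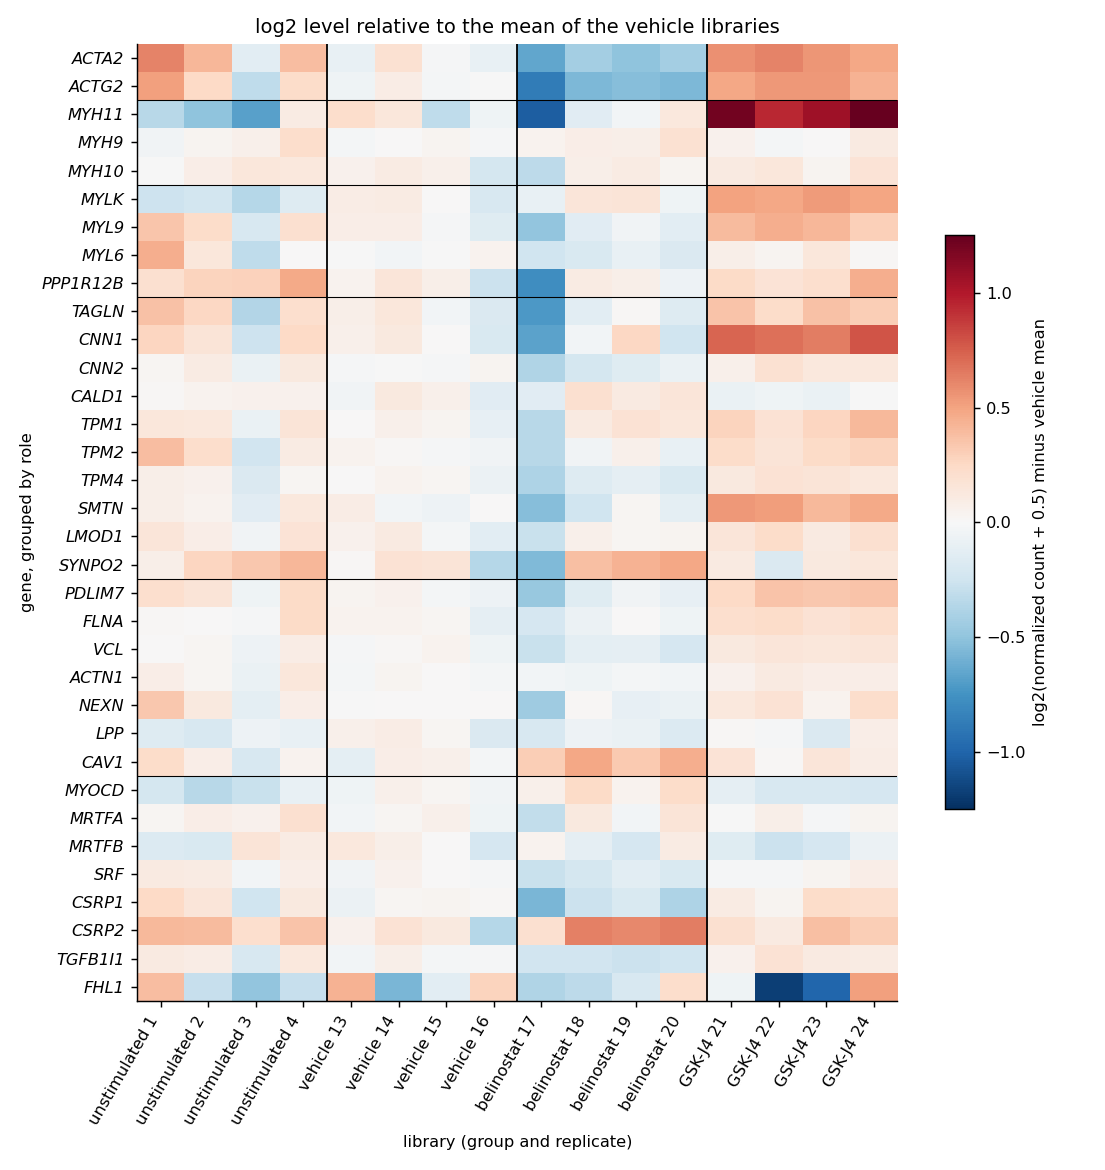
Level of each of 34 contractile genes (rows, grouped by role) in each of 16 libraries (columns), as log2(normalized count + 0.5) minus the mean of the 4 vehicle libraries. Red is above and blue below vehicle. The ACTA2, ACTG2, MYH11, MYLK and CNN1 rows are red in all 4 GSK-J4 libraries, and belinostat replicate 17 lies above its group's mean in 3 of the 34 rows.

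Against vehicle, GSK-J4 raised 9 of the 35 contractile genes tested and lowered none (DESeq2, adjusted p under 0.05), where 1.92% of all 13197 tested genes were called, 1.1% higher and 0.818% lower. At an unadjusted p under 0.05, 17 were higher and 1 lower, and edgeR also called none lower. The median log2 fold change of the 35 was 0.15, against 0.00 for all tested genes, and 30 of the 35 were positive. Libraries of the 2 groups did not overlap for 20 genes, 19 higher and 1 lower under GSK-J4 (5.52% and 4.52% of all tested genes). A fit on the vehicle and GSK-J4 libraries alone called 18, of which 17 were higher and 1 lower, and edgeR called 5. Leaving out 1 library at a time gave 6 to 8 calls. Without vehicle replicate 16, 6 were higher and 0 lower.

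Belinostat lowered 8 and raised 2 of 35 genes tested against vehicle, where 6.26% of 14209 tested genes were called, 3.12% higher and 3.13% lower. The median log2 fold change was -0.14, against 0.00 for all tested genes. Without belinostat replicate 17 the counts were 7 lower and 4 higher, since TPM4 was lost (-0.16) and CALD1 (0.15) and SYNPO2 (0.42) were gained as higher. Libraries of the 2 groups did not overlap for 15 genes, 11 lower and 4 higher under belinostat (5.98% and 5.38% of all tested genes). The 4 include PLN, which was near the floor and not tested. For GSK-J4 against vehicle, 1.1% of all tested genes were called higher and 0.818% lower. Of the 12 genes with a box, DESeq2 called 4 higher under GSK-J4 than in vehicle and 5 lower under belinostat than in vehicle. Of the 23 matched genes without a box, 3 were higher under GSK-J4, and 3 were lower and 2 higher under belinostat. These numbers include genes that were not tested: ACTC1 with a box, and PPP1R14A, CASQ2 and PLN without. Of the 5 genes not in the promoter table, 2 were higher under GSK-J4 and none was called under belinostat.

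Set directly against GSK-J4, belinostat was lower for 22 and higher for 3 of 36 genes tested, where 12.2% of 14717 tested genes were called, 6.18% higher and 6.01% lower. The median log2 fold change was -0.29. Libraries did not overlap for 24 genes lower and 3 higher under belinostat (8.63% and 8.38% of all tested genes). The 3 include PLN, which was not tested. Without belinostat replicate 17, 16 were lower and 6 higher. The labelled doses of the compounds differed.

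By the sample titles, vehicle and unstimulated cells differed by the cytokine pulses. The columns name no agent for unstimulated cells, so a difference in DMSO could not be told apart from the pulses. Vehicle was higher than unstimulated for MYLK and MYOCD and lower for none of 36 genes tested, where 1.74% of 16240 tested genes were called, 1.1% higher and 0.634% lower. At an unadjusted p under 0.05, 3 were higher and 3 lower, and edgeR called 0 in either direction. Without unstimulated replicate 3 the 2 calls were instead ACTA2 (-0.47) and ACTG2 (-0.34), both lower in vehicle. The count was 0 when unstimulated replicate 2, vehicle replicate 14 or vehicle replicate 15 was left out, and 1 when unstimulated replicate 1 or vehicle replicate 13 was. With unstimulated replicate 3 and belinostat replicate 17 both left out, a setting chosen after seeing the data, 11 were called, 2 higher and 9 lower in vehicle. Libraries did not overlap for 1 gene higher and 2 lower in vehicle (3.8% and 3.13% of all tested genes). Compared with unstimulated cells, belinostat was lower for 11 and higher for 3 of 35 genes (10.3% of all tested genes were called, 5.51% higher and 4.77% lower). Without unstimulated replicate 3, 17 were lower and 3 higher, and without belinostat replicate 17, 9 were lower and 4 higher. GSK-J4 was higher for 4 and lower for none of 37 (5.55%, 3.18% higher and 2.37% lower). The 4 were MYH11, MYLK, CNN1 and SMTN. At an unadjusted p under 0.05 none was lower and 11 were higher under GSK-J4 than in unstimulated cells, and edgeR called 4 higher and 0 lower. Against unstimulated cells, libraries did not overlap for 3 genes higher and 7 lower under belinostat (6.62% and 5.7%), and for 9 higher and 1 lower under GSK-J4 (6.71% and 5.24%).

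**Figure D2:**
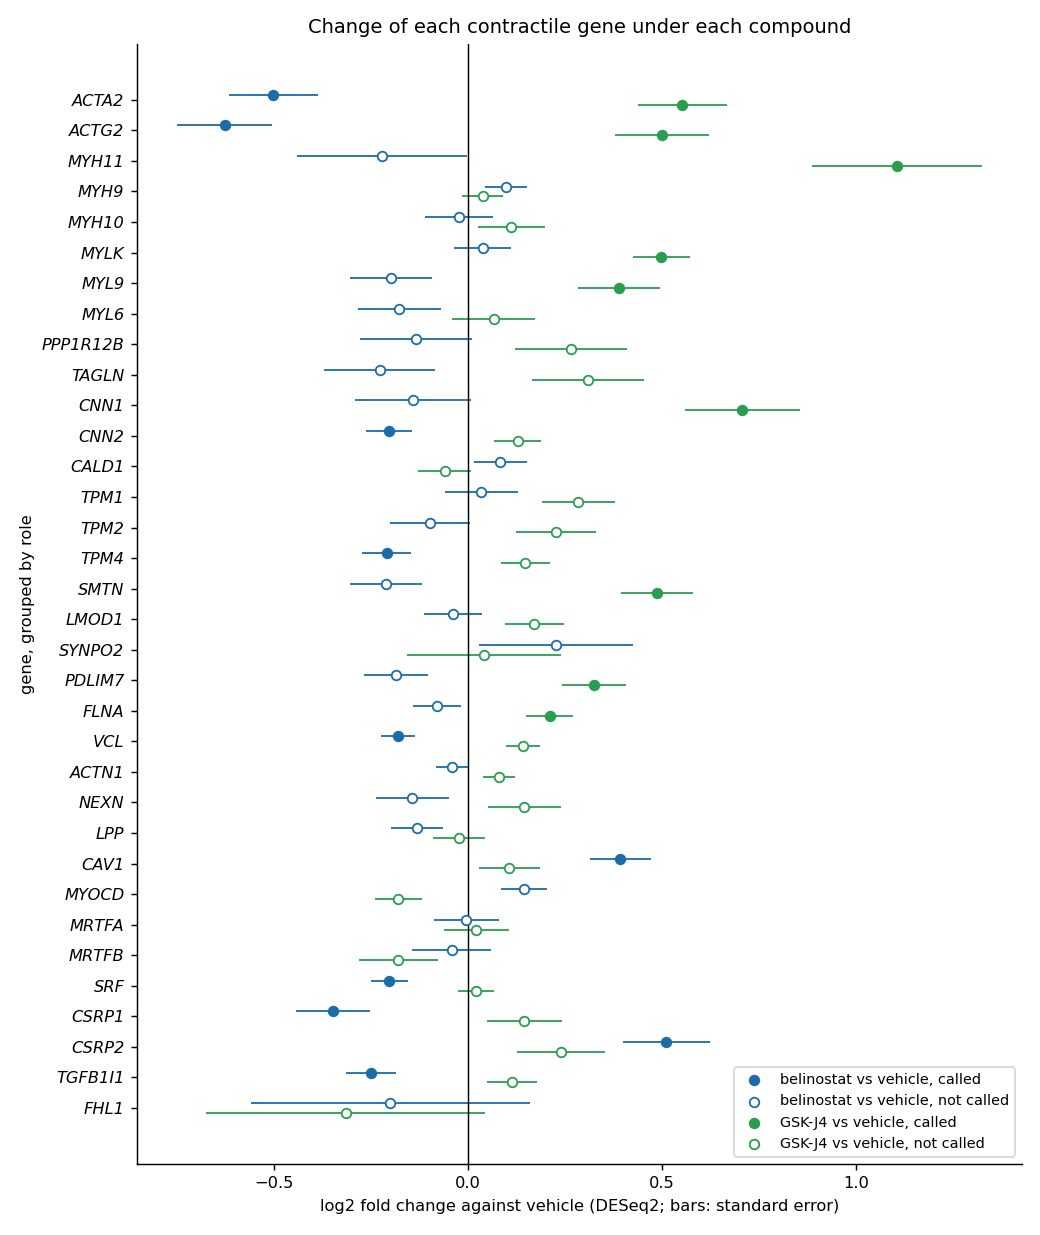
Log2 fold change (horizontal axis) of 34 contractile genes against vehicle under belinostat (blue) and GSK-J4 (green), with bars for the standard error. Filled points passed an adjusted p under 0.05 in DESeq2. Green points lie right of zero for most effectors, and the only filled blue points right of zero are CAV1 and CSRP2. Both compounds share the vehicle libraries.

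The smooth muscle actins ACTA2 and ACTG2 rose under GSK-J4 and fell under belinostat. ACTA2 (chromosome 10, 88935074 to 88991339, 9 exons, GRCh38) had 13250.1, 16088, 13989 and 13242 normalized counts in vehicle, 8967, 10517, 9951 and 10524 under belinostat and 20980.3, 21659.7, 20658 and 19658 under GSK-J4. No library of one of these groups reached the range of another. Unstimulated cells ranged across the vehicle and GSK-J4 values, at 21658, 18789, 12838 and 18414. The difference from vehicle was -0.50 (SE 0.11, DESeq2 adjusted p 0.00057) under belinostat and 0.55 (SE 0.11, DESeq2 adjusted p 0.000376) under GSK-J4. Belinostat stood -1.05 (SE 0.11, DESeq2 adjusted p 1.11e-17) from GSK-J4. ACTG2 (chromosome 2, 73892314 to 73919865, 9 exons) had 6146, 6808, 6283 and 6369.7 in vehicle, 3487, 4343, 4424 and 4329.7 under belinostat and 8942, 9304, 9293 and 8650.3 under GSK-J4. Its groups were ordered as those of ACTA2, with a difference of -1.13 (SE 0.12, DESeq2 adjusted p 5.04e-18) between belinostat and GSK-J4. Counts of ACTA2 per count of ACTG2 lay between 2.08 and 2.57 in all 16 libraries. The rise of ACTG2 under GSK-J4, 0.50 (SE 0.12, DESeq2 adjusted p 0.00536), was not called by edgeR. Without belinostat replicate 17, the differences of belinostat from vehicle were -0.45 for ACTA2 and -0.55 for ACTG2 and both were still called.

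ACTC1, the cardiac actin, was close to absent outside 3 belinostat libraries. It had 0.955, 37.9, 22.7 and 34.3 normalized counts under belinostat, 11.4, 4.79, 3.73 and 0 in vehicle, 0.965, 4.00, 2.66 and 0 in unstimulated cells and 1.02, 0, 2.03 and 3.14 under GSK-J4. Belinostat replicate 17, the lowest, lay within the range of the other groups. The difference between belinostat and GSK-J4 was 3.95 (SE 1.06, DESeq2 adjusted p 0.00322) and rests on few counts. It had no adjusted p under TMM scaling or without belinostat replicate 18 or 20. Against vehicle it was removed by DESeq2's filter on low means, so no adjusted p was given. Per kilobase of transcript, ACTA2 stood at 13287 ± 2734 normalized counts in unstimulated cells, ACTG2 at 4895 ± 1102 and ACTC1 at 1.38 ± 1.29 (SD, n = 4).

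**Figure D3:**
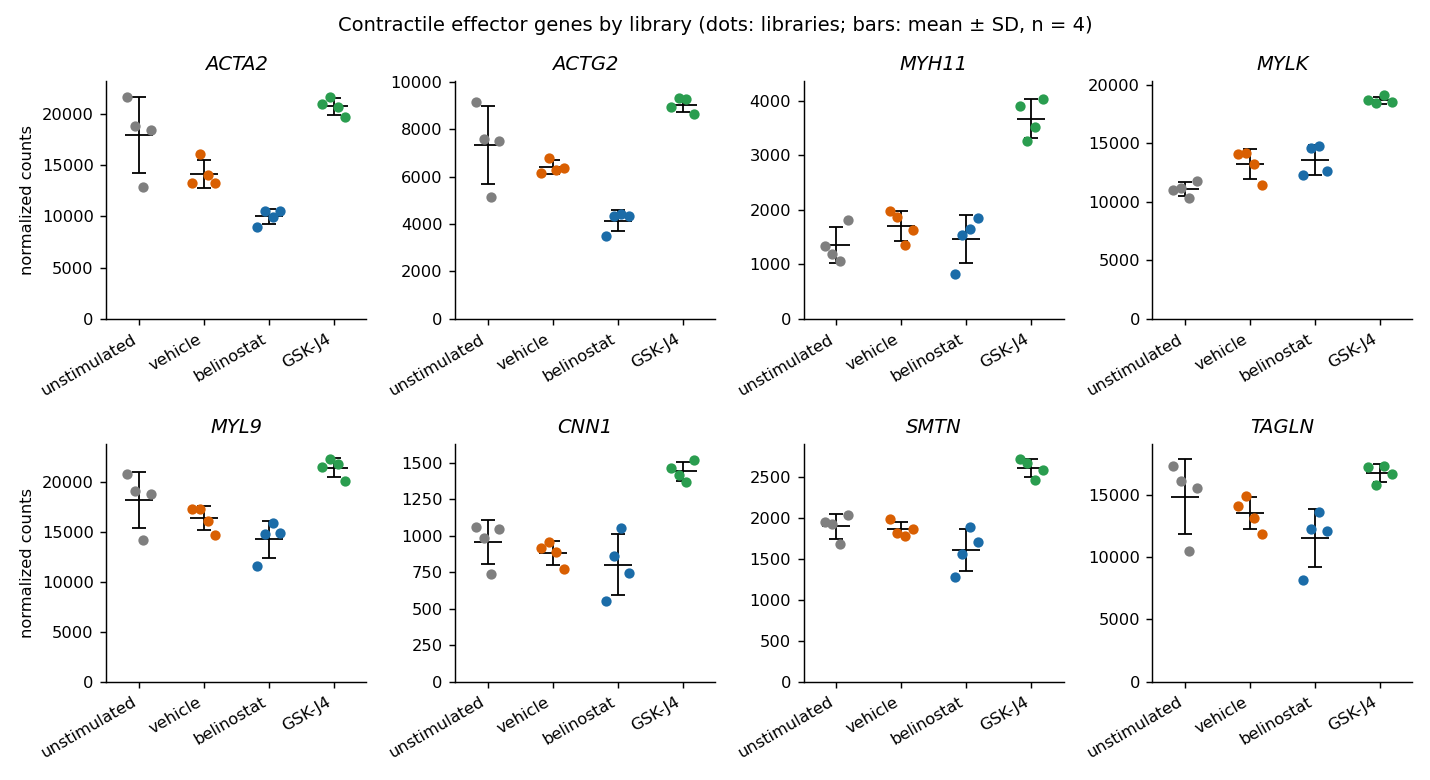
Normalized counts (vertical axes, from 0) of 8 contractile effector genes in each library of the 4 groups, with bars for mean ± SD (n = 4). The GSK-J4 libraries lie above all vehicle libraries for each of the 8, and the vehicle and belinostat libraries overlap for all but ACTA2 and ACTG2.

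Of the myosin heavy chains, the smooth muscle form moved and the non-muscle forms did not pass the test. MYH11 (chromosome 16, 15703135 to 15857028, 41 exons) had 1333, 1196, 1053 and 1810.1 normalized counts in unstimulated cells, 1975, 1862, 1359.9 and 1633 in vehicle, 826, 1534, 1653 and 1847 under belinostat and 3896, 3253, 3513 and 4033 under GSK-J4. The lowest GSK-J4 library lay above the highest of all other groups, and the other 3 groups overlapped. GSK-J4 exceeded unstimulated cells by 1.45 (SE 0.22, DESeq2 adjusted p 1.19e-08) in log2 units, and belinostat differed from vehicle by -0.22 (SE 0.22, DESeq2 adjusted p 0.733). MYH9 and MYH10, which drive non-muscle contraction, differed from vehicle by 0.04 and 0.11 under GSK-J4, with 95% intervals of -0.07 to 0.14 and -0.06 to 0.28. Under belinostat the intervals were -0.01 to 0.20 for MYH9 and -0.19 to 0.15 for MYH10.

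The gain of MYH11 started from a low share of the heavy chain transcripts. Per kilobase, unstimulated cells held 7588 ± 599 normalized counts of MYH9, 729 ± 33.4 of MYH10 and 196 ± 47.8 of MYH11, and GSK-J4 cells held 534 ± 51.8 of MYH11 (SD, n = 4). MYH11 counts were 6.15% to 6.98% of MYH9 counts under GSK-J4, 2.47% to 3.73% in vehicle, 1.49% to 3.01% under belinostat and 1.87% to 2.89% in unstimulated cells. MYH11 exons overlap NDE1 on the opposite strand, and the named library kit does not mark strand. NDE1, chosen after its values were seen, differed by -0.02 (SE 0.08) between GSK-J4 and vehicle and was not called.

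In the phosphorylation switch, the genes of the kinase and of the light chain it acts on rose under GSK-J4. Counts are by gene symbol and do not separate MYLK transcripts that begin at different starts. MYLK had 11017, 11211, 10328 and 11777 normalized counts in unstimulated cells, 14056, 14190.2, 13237 and 11445 in vehicle, 12329, 14594, 14789 and 12662 under belinostat and 18682, 18463, 19116 and 18509 under GSK-J4. DESeq2 called it higher in vehicle, belinostat and GSK-J4 cells than in unstimulated cells, by 0.26 (SE 0.07, DESeq2 adjusted p 0.0335), 0.29 (SE 0.07, DESeq2 adjusted p 0.00146) and 0.75 (SE 0.07, DESeq2 adjusted p 1.02e-21). The first of these calls was lost under edgeR and when any of unstimulated replicates 1, 2 and 3 or vehicle replicates 13, 14 and 15 was left out. Belinostat and vehicle libraries overlapped, with a difference of 0.04 (SE 0.07) and an interval of -0.10 to 0.18.

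MYL9 had 17344, 17324, 16154 and 14762 normalized counts in vehicle, 11592, 14813, 15885 and 14883 under belinostat and 21515, 22388, 21842 and 20172 under GSK-J4. The rise under GSK-J4 was 0.39 (SE 0.11, DESeq2 adjusted p 0.0189) and the call was lost under edgeR and without any of vehicle replicates 15 and 16 and GSK-J4 replicates 21, 22 and 23. In unstimulated cells MYL9 had 20806, 19136, 14216 and 18793, which overlapped GSK-J4, and it was not called between these groups. Belinostat lay -0.59 (SE 0.11, DESeq2 adjusted p 1.29e-06) from GSK-J4. MYL6, the essential light chain, differed by -0.18 (SE 0.11) under belinostat and 0.07 (SE 0.11) under GSK-J4, neither of which passed. PPP1R12B, a targeting subunit of myosin phosphatase, had 3163, 3338, 3352 and 3816 in unstimulated cells and 1607, 2955, 2903 and 2638 under belinostat. Its difference of -0.44 (SE 0.14, DESeq2 adjusted p 0.0296) was -0.27 without belinostat replicate 17, and the call was lost under edgeR and without unstimulated replicate 2 or 4 or belinostat replicate 20. PPP1R14A, a phosphatase inhibitor of mature smooth muscle, did not exceed 3.14 normalized counts in any library.

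Of 10 thin filament genes, CNN1 and SMTN rose under GSK-J4 and CNN2 and TPM4 fell under belinostat. CNN1, the calponin of differentiated smooth muscle, had 918, 959, 885 and 769.9 normalized counts in vehicle, 554, 857, 1052 and 742 under belinostat and 1463, 1417, 1368 and 1519 under GSK-J4. All GSK-J4 libraries were above all others, including the unstimulated ones at 1062, 984, 736 and 1049. The rise was 0.71 (SE 0.15, DESeq2 adjusted p 0.000463) over vehicle and 0.59 (SE 0.15, DESeq2 adjusted p 0.00275) over unstimulated cells. SMTN, which encodes the actin-bound protein smoothelin, had 1985, 1821, 1781 and 1869 in vehicle, 1284, 1563, 1890.1 and 1706 under belinostat and 2719, 2676, 2462 and 2589 under GSK-J4. It too had no overlap between GSK-J4 and any other group, with a rise of 0.49 (SE 0.09, DESeq2 adjusted p 6.56e-05) over vehicle.

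CNN2, a more widely used calponin, fell under belinostat by 0.20 in log2 units (SE 0.06, DESeq2 adjusted p 0.0153), and TPM4, a non-muscle tropomyosin, fell by 0.21 (SE 0.06, DESeq2 adjusted p 0.0184). Neither was called by edgeR. The CNN2 call was also lost without vehicle replicate 16 or belinostat replicate 18, and the TPM4 call without vehicle replicate 13, 14 or 15 or belinostat replicate 17. TAGLN, the abundant actin-bundling protein transgelin, had 14139, 14872, 13159.8 and 11883 in vehicle, 8175, 12273, 13638 and 12077 under belinostat and 17213, 15799.9, 17343 and 16640.3 under GSK-J4. GSK-J4 and vehicle did not overlap, yet the difference of 0.31 (SE 0.14, DESeq2 adjusted p 0.402) did not pass. Of the 3 tropomyosins tested, TPM1 (0.28), TPM2 (0.23) and TPM4 (0.15) were above vehicle under GSK-J4 in all 4 libraries without being called.

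CALD1, LMOD1 and SYNPO2 did not pass against vehicle under either compound. CALD1 encodes caldesmon, which restrains actomyosin, and stood -0.06 (SE 0.07) from vehicle under GSK-J4 with an interval of -0.19 to 0.07. LMOD1, which nucleates actin filaments in smooth muscle, was 0.17 (SE 0.08) above vehicle under GSK-J4 and not called. SYNPO2 had 1551, 2959.9, 3067 and 3171 under belinostat, where replicate 17 lay far below the others. Without it, SYNPO2 was 0.42 above vehicle and called.

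In the direct comparison, 7 of the 10 thin filament genes were lower under belinostat than under GSK-J4 and none was higher. Of all tested genes, 6.01% were lower and 6.18% higher. The differences ran from -0.85 for CNN1, -0.70 for SMTN and -0.54 for TAGLN to -0.21 for LMOD1. The call of LMOD1 was lost in 10 of 14 alternatives and that of TPM2 in 5, edgeR and the fit without belinostat replicate 17 (-0.14 and -0.25) among them, while those of CNN1, CNN2, SMTN, TAGLN and TPM4 were kept in all 14 alternatives.

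Of the anchorage genes, FLNA and PDLIM7 rose under GSK-J4, and under belinostat VCL fell and CAV1 rose. FLNA, the actin crosslinker filamin A, rose by 0.21 (SE 0.06, DESeq2 adjusted p 0.0346) and PDLIM7, an adaptor of the actin cytoskeleton, by 0.32 (SE 0.08, DESeq2 adjusted p 0.00912) under GSK-J4. Both calls were lost under edgeR. That of FLNA was also lost when any single vehicle or GSK-J4 library was left out, and that of PDLIM7 on leaving out 1 of vehicle replicates 15 and 16 and GSK-J4 replicates 22, 23 and 24. Neither gene was called between GSK-J4 and unstimulated cells, and for FLNA the libraries of these groups overlapped. VCL, which encodes vinculin of adhesion sites, had 16406, 16764, 17074 and 15973 in vehicle, 13636, 15254, 15290.3 and 14272 under belinostat and 18052, 18381, 18215 and 18400.2 under GSK-J4. The 3 groups did not overlap for VCL. Its fall under belinostat was -0.18 (SE 0.04, DESeq2 adjusted p 0.00114), and the rise under GSK-J4 was 0.14 (SE 0.04, DESeq2 adjusted p 0.0502) and just missed the threshold.

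CAV1, which encodes the caveolar coat protein caveolin-1, was highest under belinostat. It had 9714, 11203, 11056 and 10408 normalized counts in vehicle, 13087, 14753, 13316 and 14457 under belinostat, 11905, 10682, 11726 and 11304 under GSK-J4 and 12429, 11220.1, 9189.8 and 10929 in unstimulated cells. All belinostat libraries were above all others. The rise was 0.39 (SE 0.08, DESeq2 adjusted p 4.16e-05) against vehicle and was called in all 14 alternatives. ACTN1, NEXN and LPP, which link actin to adhesion sites and filaments, did not pass against vehicle under either compound. ACTN1 (-0.12) and NEXN (-0.29) were lower under belinostat than under GSK-J4, but the first call was lost in 9 of 14 alternatives and the second in 5. Both were lost under edgeR and without belinostat replicate 17. PDLIM3 was scarce, at 30.5, 51.7, 34.5 and 45.2 in vehicle and 21.96, 25.6, 24.8 and 28.03 under belinostat, and passed only between belinostat and GSK-J4 among the 6 comparisons, at -0.80 (SE 0.26, DESeq2 adjusted p 0.0194), a call lost without belinostat replicate 17 or GSK-J4 replicate 21 or 22.

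The regulators differed among themselves in direction. MYOCD had 7222, 6612, 6942 and 7896 normalized counts in unstimulated cells, 8121, 8778, 8550.0 and 8171 in vehicle, 8776, 9892, 8665 and 9822 under belinostat and 7775, 7335, 7314 and 7267 under GSK-J4. Vehicle libraries lay above all unstimulated and all GSK-J4 libraries. MYOCD was 0.23 (SE 0.06, DESeq2 adjusted p 0.0119) higher in vehicle than in unstimulated cells, a call lost under edgeR and on leaving out 1 of unstimulated replicates 2 and 3 and vehicle replicates 14 and 15. It was 0.32 (SE 0.06, DESeq2 adjusted p 2.76e-06) higher under belinostat than under GSK-J4, whereas ACTA2, ACTG2, MYH11 and CNN1 were lower in that comparison. Between GSK-J4 and vehicle it stood at -0.18 (SE 0.06, DESeq2 adjusted p 0.102) and was not called.

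SRF had 1949, 2076, 2010.1 and 1989.8 in vehicle, 1654, 1722, 1836 and 1762 under belinostat and 1983, 1982, 2047 and 2129.8 under GSK-J4. Belinostat libraries were below all others, with a fall of -0.20 (SE 0.05, DESeq2 adjusted p 0.000843) against vehicle, and GSK-J4 and vehicle overlapped at 0.02 (SE 0.05). Counts of MYOCD per count of SRF ran from 4.72 to 5.75 under belinostat and from 3.06 to 4.25 in the other groups. MRTFA and MRTFB passed in none of the 6 comparisons. Their intervals against vehicle were -0.17 to 0.16 and -0.24 to 0.16 under belinostat and -0.14 to 0.18 and -0.38 to 0.02 under GSK-J4. Per kilobase, unstimulated cells held 837 ± 63.7 normalized counts of MYOCD, 497 ± 22.2 of SRF, 214 ± 11.97 of MRTFA and 64.8 ± 8.28 of MRTFB (SD, n = 4).

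**Figure D4:**
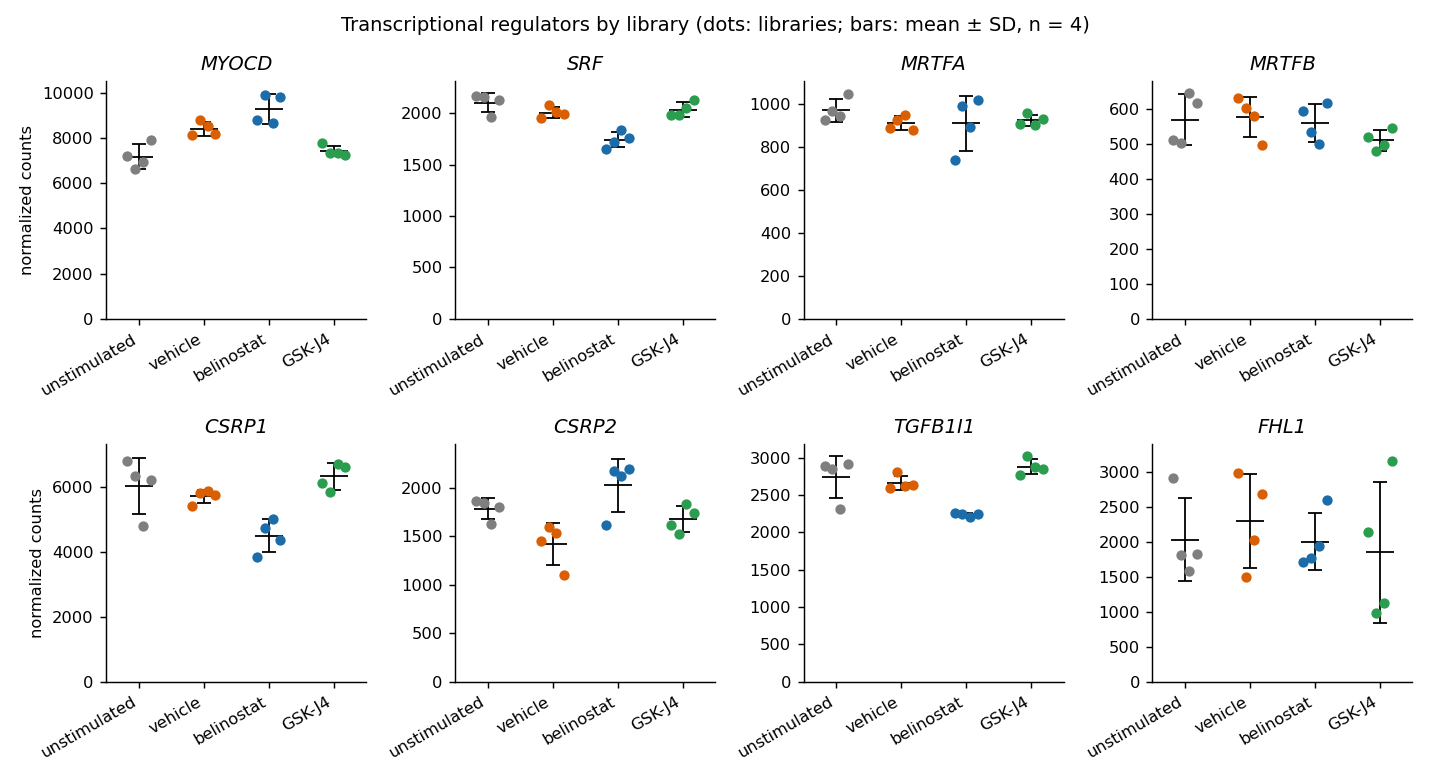
Normalized counts (vertical axes, from 0) of 8 regulators in each library, with bars for mean ± SD (n = 4). MYOCD is highest in vehicle and belinostat cells, SRF, CSRP1 and TGFB1I1 are lowest under belinostat, CSRP2 is highest there, and FHL1 spreads widely within every group.

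The related LIM proteins CSRP1 and CSRP2, which assist SRF in smooth muscle, moved apart under belinostat. CSRP1 had 5424, 5822, 5872 and 5764 in vehicle and 3847, 4734, 5027 and 4372 under belinostat, a fall of -0.35 (SE 0.10, DESeq2 adjusted p 0.00798). CSRP2 had 1453, 1591, 1532 and 1099 in vehicle and 1613, 2167, 2123 and 2188 under belinostat, a rise of 0.51 (SE 0.11, DESeq2 adjusted p 0.000282). Neither pair of groups overlapped, and both calls held in all 14 alternatives. For CSRP2, unstimulated cells had 1864, 1844, 1627 and 1798, above every vehicle library and within the range under belinostat. CSRP2 was not called between unstimulated cells and either vehicle (-0.33, DESeq2 adjusted p 0.129) or belinostat. TGFB1I1, which encodes the adhesion protein and coactivator Hic-5, fell by 0.25 (SE 0.06, DESeq2 adjusted p 0.00329), with belinostat libraries at 2254, 2250.4, 2213 and 2248 and vehicle at 2601, 2809, 2617 and 2631. FHL1 ranged from 981 to 3159 within GSK-J4 alone, and it passed in none of the 6 comparisons.

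DES, CASQ2, PLN and PPP1R14A were close to absent. CASQ2 and PLN encode calcium-store proteins of muscle. CASQ2 did not exceed 1.05 normalized counts in any library. PLN had 3.82, 6.11, 8.63 and 4.15 under belinostat and 1.90, 0.958, 3.73 and 0.922 in vehicle, which did not overlap but lay near the floor of 3 counts, and the filter on low means left it untested there.

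Other genes of the pathway were read against the shares of all tested genes called against vehicle, 6.26% under belinostat and 1.92% under GSK-J4. Of 14 tested genes of calcium and cyclic GMP handling, the calmodulin gene CALM3 rose under GSK-J4 (0.22, SE 0.06, DESeq2 adjusted p 0.0344), and the calcium release channel gene RYR2 fell under belinostat (-0.62, SE 0.20, DESeq2 adjusted p 0.0312). Among 17 tested genes of the wider actin cytoskeleton, the non-muscle actin ACTG1 (-0.47, SE 0.09) and the adhesion protein gene ZYX (-0.24, SE 0.08) fell under belinostat. Under GSK-J4, CFL2, a filament-severing cofilin, rose by 0.24 (SE 0.06) and PDLIM1, an adaptor of actin fibres, was lower at -0.18 (SE 0.05).

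Of the immediate early genes that SRF also drives, JUNB alone passed of 8 tested under belinostat (-0.44, SE 0.09, DESeq2 adjusted p 0.000127), and 0 of 7 under GSK-J4. Among 10 tested transcription factors that oppose or modulate myocardin, none passed under belinostat, and KLF4 (1.19, SE 0.31, DESeq2 adjusted p 0.0131) and MEF2A (0.39, SE 0.09, DESeq2 adjusted p 0.00131) rose under GSK-J4. KLF4, which is known to repress smooth muscle genes, was scarce, with 19.04, 22.997, 13.97 and 16.6 normalized counts in vehicle and 44.8, 44.03, 48.8 and 28.3 under GSK-J4. The groups did not overlap.

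Markers of other cells moved with some of these results, and their part in them was not tested. Against vehicle, 1.1% of all tested genes were called higher under GSK-J4. Under belinostat 3.12% were called higher and 3.13% lower. Under GSK-J4, 2 of the 5 pericyte markers tested rose against vehicle, RGS5 and NOTCH3. The summed level of all 8 was 15543 to 16654 normalized counts under GSK-J4 and 14801 to 17407 in vehicle, and the pericyte markers HIGD1B and COX4I2 were at 0 in all libraries. Of 8 fibroblast markers, 2 rose under GSK-J4 and 2 fell under belinostat, with sums of 525541 to 560565, 419102 to 498929.6 and, in vehicle, 488749 to 520335. Of 8 proliferation markers tested, MKI67 (1.42, SE 0.36) and TOP2A (0.78, SE 0.21) rose under GSK-J4, with sums of 1515 to 1678 against 1282 to 1562 in vehicle. Under belinostat KRT8 and KRT18, the 2 epithelial markers tested of 5, both rose, and the sum of the 5 was 1952 to 3449 against 1539.9 to 1949 in vehicle, with KRT20 at 0 in all libraries. Summed markers of skeletal and cardiac muscle stayed at or below 180.3 normalized counts in any library, those of endothelium at or below 41.7 and those of enteric glia at or below 3.05.

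Reads of some of these genes cannot be assigned with certainty. For 11 of the 40, more than 10% of the 31-base words of their transcripts also occur in another gene, among them TAGLN with 46.3%, ACTA2 with 37.1%, CNN2 with 25.9%, TPM1 with 23.6% and TPM4 with 21.4%. For 8 of the 40, exons overlap a protein-coding gene on the opposite strand. ACTA2 overlaps FAS, which was itself lower under belinostat than in vehicle (-0.31, SE 0.07, DESeq2 adjusted p 0.000592) and not called under GSK-J4 (0.01, SE 0.07). FAS was named after its values were seen. FAS averaged 749 normalized counts in vehicle, against 14142 for ACTA2.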

How the data were processed

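RNA from 16 Ccd18-Co cultures was sequenced on a NextSeq500 after library preparation with NEBNext Ultra II RNA. The deposited table holds the authors' estimated counts by gene symbol. The submitters' processing notes name kallisto 0.48.0, FastQC 0.11.9, MultiQC 1.14 and hg38, and the transcriptome release was not given in the sources used here. Of the deposited values, 28% had decimals, and all were rounded to whole numbers.

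Groups came from the sample labels, with 4 libraries each. One DESeq2 1.42.0 model (R 4.3.3) of all 16 libraries gave the Wald test of each of 6 contrasts, two-sided, with Benjamini-Hochberg adjustment over all genes tested, default size factors and independent filtering, and calls at an adjusted p under 0.05. Error is the SD of 4 libraries or the standard error of the model. The 95% intervals of log2 fold changes are Wald intervals from that standard error. On data simulated for GSK-J4 against vehicle over 15149 genes, DESeq2 recovered 99 of 100 genes changed by 1 on the log2 scale and 81 of 100 changed by 0.5, with 18 false calls among 198. On the same data edgeR recovered 99 and 75, with 5 false calls among 179. Genes were drawn independently, so shifts shared within a library, as in belinostat replicate 17, were not simulated. edgeR 4.0.16, TMM scaling, size factors without the 40 genes, a minimum of 10 counts in 4 libraries, fits of only the groups compared and leaving out each library were alternatives.

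The text names the 40 genes and the genes of companion lists, of which 1 list and 1 further gene are not reported here. These genes and lists were chosen with earlier results of these data known. Levels per kilobase use the length of the canonical transcript in GENCODE v44 (GRCh38), which need not be the isoform expressed, and gene positions are from the same annotation. Promoter sequence is from RefSeq. Library totals of 14.4 to 19.5 M limit precision mainly for genes near the floor of 3 counts, and counting error alone is covered by that floor. Protein identity between family members was not analysed here.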

Additional observations from a re-analysis of the deposited data

Results flagged for a closer look

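In each group of 4 libraries, a library was looked at again where its gap to the nearest other, relative to the group's range, exceeded Dixon's 95% critical value, for 141 groups of 1 gene and 1 condition. Chance flags about 1 in 20 groups, and 15 were found here. Belinostat replicate 17 gave 5 of them: ACTG2 at 3487 normalized counts (others 4330 to 4424), TPM1 at 12696 (17446 to 18248), LMOD1 at 6150 (7559 to 7765), SYNPO2 at 1551 (2960 to 3171) and CSRP2 at 1613 (2123 to 2188). All 5 were low, whether the gene was lower or higher than vehicle under belinostat. Vehicle replicate 16 gave 3, with MYH10 at 4528 (5490 to 5669), FLNA at 61330 (67301 to 68293) and CNN2 at 4586 (4449 to 4463). Unstimulated replicate 3 gave TPM1 at 15204 (17633 to 18066) and TGFB1I1 at 2319 (2844 to 2921).

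The other 5 came from single libraries. FLNA stood at 78327 in unstimulated replicate 4 (65665 to 66770). TGFB1I1 stood at 2809 in vehicle replicate 14 (2601 to 2631) and at 2213 in belinostat replicate 19 (2248 to 2254). Under GSK-J4, MYOCD stood at 7775 in replicate 21 (7267 to 7335) and SYNPO2 at 2006 in replicate 22 (2464 to 2513).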

How the results depend on the processing

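No log2 fold change that was called reversed under any alternative. The number of contractile genes called between vehicle and unstimulated cells was 0 with edgeR and 11 (2 higher, 9 lower) with unstimulated replicate 3 and belinostat replicate 17 both left out, a setting added after seeing the data. Between GSK-J4 and vehicle it was 5 with edgeR, 18 in a fit of only these groups and 17 (16 higher, 1 lower) with the 2 libraries left out. The remaining counts under edgeR, TMM scaling, size factors without these genes, a filter on low counts or only the groups compared stayed within 1.5 times. Leaving out each library in turn gave 0 to 2 calls for vehicle against unstimulated, 9 to 11 for belinostat against vehicle, 6 to 8 for GSK-J4 against vehicle, 19 to 24 for belinostat against GSK-J4, 12 to 20 for belinostat against unstimulated (20 without unstimulated replicate 3) and 4 to 6 for GSK-J4 against unstimulated. Calls kept in all 14 alternatives were ACTA2, CNN1, MYH11, MYLK and SMTN under GSK-J4 and ACTA2, ACTG2, CAV1, CSRP1, CSRP2, SRF, TGFB1I1 and VCL under belinostat, both against vehicle. Apart from the settings built on fewer libraries or genes, the cause of these shifts was not tested. No paired analysis was possible because the groups share no replicate number. Depth limits ACTC1, PLN, CASQ2, DES and PPP1R14A, which lie near the floor of 3 counts.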

Other observations

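In the direct comparison of belinostat with GSK-J4, genes around the contractile apparatus are given here beside the 12.2% of all tested genes that were called, 6.18% higher and 6.01% lower. Of 15 tested genes of calcium and cyclic GMP handling, 4 were lower under belinostat and none higher, among them the potassium channel gene KCNMA1 (log2 fold change -0.44), the calmodulin gene CALM3 (-0.34) and GUCY1A1 (-1.29), a subunit of the nitric oxide receptor. Of 18 tested genes of the wider actin cytoskeleton, 6 were lower and none higher, among them ZYX (-0.47), ACTG1 (-0.48) and the cofilin relatives CFL2 (-0.28) and DSTN (-0.25). Of 8 immediate early genes that SRF also drives, 4 were lower, FOSB (-1.29), EGR1 (-0.47), EGR3 (-0.84) and JUNB (-0.54), and IER2 was higher (0.18).

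Summed markers of interstitial cells of Cajal, the gut pacemaker, lay between 5173 and 6424 normalized counts over all libraries, and those of immune cells between 151 and 481, with the T cell gene CD3E at 0.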
